A study of Mus musculus with 16 samples.

Results

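The 7 genes described here encode non-collagen proteins secreted into the matrix, among them the mineralisation inhibitor Mgp. They were Mgp, Ccdc80, Fn1, Fbln2, Tnc, Vcan and Igsf10, and a probe was taken as theirs where the annotation of the array gave that symbol and no other. This picked 8 of 15247 probes, with 2 for Ccdc80 and 1 for each of the others, and 7 of 7114 named genes.

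M833 cells and WT cells were each measured on 8 two-colour arrays, on which total RNA of mouse cells was hybridised together with a common reference RNA. In each cell type 4 arrays carried the cell sample in Cy5 and 4 in Cy3. By its title the series deals with Met mutations in MEFs, that is, in mouse embryonic fibroblasts. What M833 stands for and which allele it carries is not in the labels, nor is the number of embryos or cultures, the make-up of the reference, or any treatment or time. Values are log2 ratios of sample over reference, a direction and log base that are likely from the titles and values but not stated, so 0 marks the level of the reference and a difference of 1 is a doubling.

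Fibroblasts secrete a matrix in which fibronectin, the product of Fn1, is assembled into fibrils through integrins, and fibulins and other glycoproteins attach to these fibrils and to elastic fibres. Tenascin-C (Tnc) and versican (Vcan) are large matrix molecules of embryonic and remodelling tissue, the first a glycoprotein that modulates adhesion to fibronectin and the second a chondroitin sulfate proteoglycan that binds hyaluronan. Matrix Gla protein (Mgp) is a small secreted protein that depends on vitamin K for its carboxylation and keeps soft tissues such as artery wall and cartilage from calcifying.

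All 8 probes had a value on every array, but 49 values above 8 on WT replicate 2 were set missing, as no other array held one. Among them was Vcan at 12.16, which leaves 7 WT arrays for that gene. Array medians lay between -0.02 and 0.07. Arrays of a cell type did not scatter evenly. Replicates 1, 2, 5 and 6 deviated together from replicates 3, 4, 7 and 8, clearly in WT and weakly in M833. This division is known from earlier results on these data, and no label gives it. Across features, deviations from the mean of a cell type and dye correlated with r of 0.182 to 0.512 between Cy5 and Cy3 WT arrays of one set, and with r of -0.511 to -0.157 between arrays of different sets. As deviations are taken from the mean of these same arrays, positive r within sets entails negative r between them. In M833 these ranges were 0.0263 to 0.239 and -0.195 to 0.0276, which overlap. The median size of the gap between sets over all features was 0.0526 in M833 and 0.125 in WT. Separate cultures are not stated for the arrays. The p-values therefore rest on array-to-array spread, part or all of which may be technical. Arrays of a set are not independent, with a correlation within sets estimated at 0.325 over all features. The precision is thus limited by the number of sets, 2 per cell type, and standard errors and p-values with n = 8 may be too small. Fibroblast identity could be checked only against the reference. Of 14 fibroblast markers 9 were measured, among them Pdgfrb and Vim above the reference and Dcn, Lum and Col3a1 below it in both cell types.

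Mgp, Ccdc80, Fn1 and Fbln2 were lower in M833 than in WT. Ccdc80 was at 50.1% and Mgp at 43.2% of the WT level, while Fbln2 at 71.6% and Fn1 at 76.9% differed less. Were the ratios reference over sample, these genes would be higher in M833 by 1.995-fold for Ccdc80, 2.31-fold for Mgp, 1.40-fold for Fbln2 and 1.30-fold for Fn1. Tnc, Vcan and Igsf10 did not pass the test. Thus 4 of 7 members were called lower (adjusted p under 0.05) and 0 higher by limma, fitted with a term for the dye, where 15.9% of all 12761 features were called lower, 9.96% higher and 25.9% in either direction. For Mgp, Ccdc80 and Fn1 the M833 arrays all fell short of the lowest WT array of the same dye. This held for 6.49% of features, the opposite order for 4.01%, and one or the other for 10.5%. All 4 stayed lower in M833 under each alternative tried, but the calls of Fn1 and Fbln2 were lost once log ratios were scaled between arrays, which left 2 of 7 members called where 26.8% of features were. When each set of arrays was averaged to 1 value, leaving 2 values per cell type, limma called 0 of the 7 members and 0 of all features, with 3 members and 1710 features at an unadjusted p under 0.05.

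**Figure D1:**
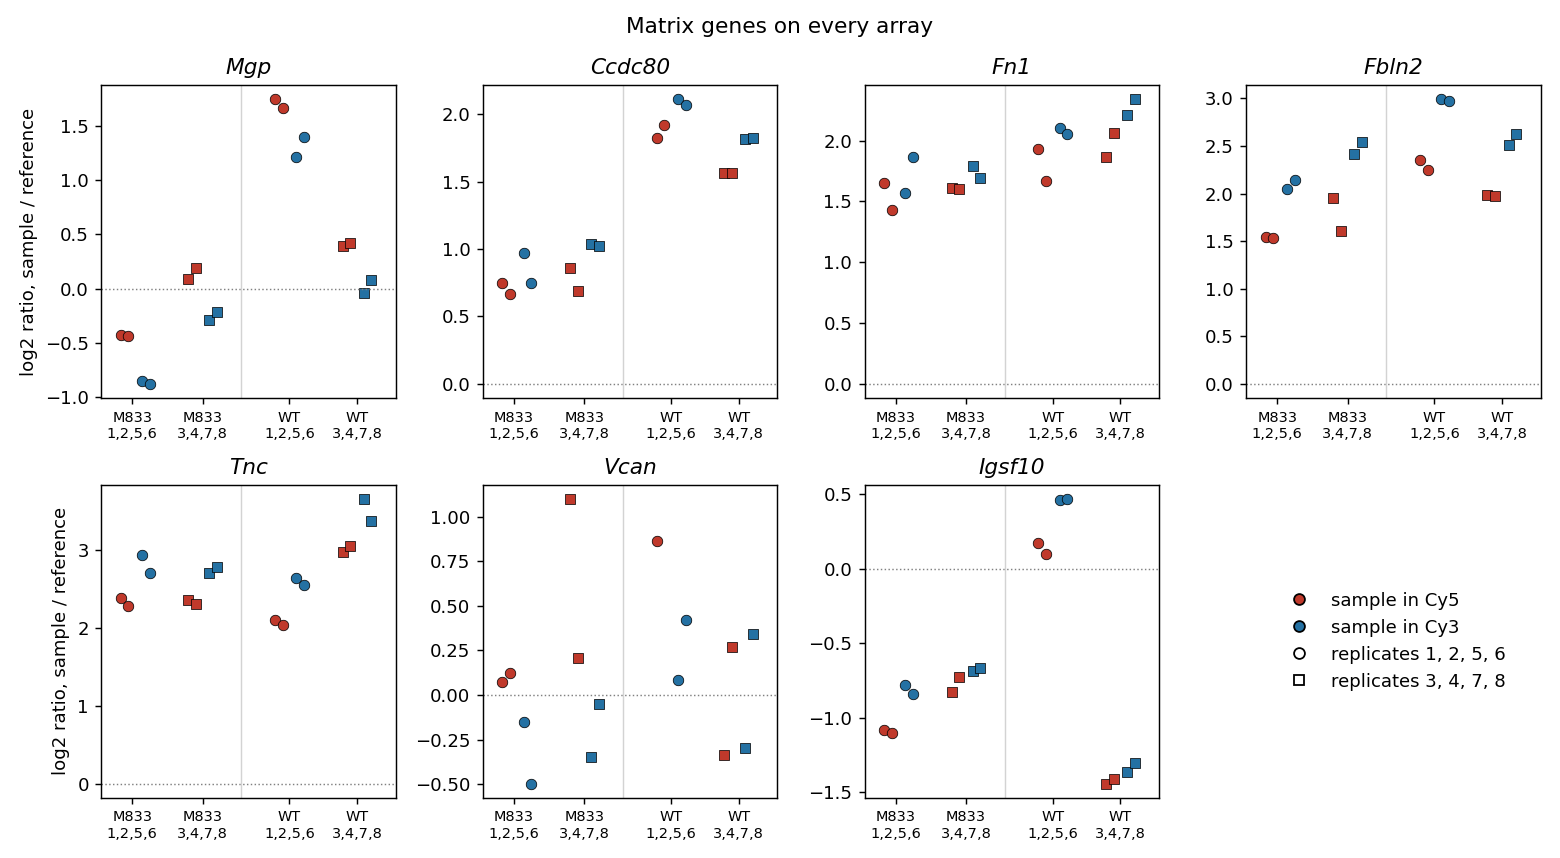
Log2 ratio of sample over reference on every array for the 7 genes, with M833 arrays left of WT arrays in each panel, replicates 1, 2, 5 and 6 as circles and 3, 4, 7 and 8 as squares. The WT circles and squares stand apart for Mgp, Tnc and Igsf10, and for Igsf10 the M833 arrays lie between them; the Vcan value set missing on WT replicate 2 is not drawn.

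Mgp had the largest difference of the 7 over all arrays, though not against WT replicates 3, 4, 7 and 8, where Ccdc80 (-0.85) and Tnc (-0.71) differed more, nor without M833 replicates 1, 2, 5 and 6, where Ccdc80 (-0.94) did. Its log2 ratio in M833 ran from -0.88 over a median of -0.36 to 0.19, and in WT from -0.04 over a median of 0.82 to 1.74. Within a dye orientation the cell types did not overlap, since Cy5 arrays reached at most 0.19 in M833 and at least 0.39 in WT, and Cy3 arrays at most -0.22 in M833 and at least -0.04 in WT. The fitted log2 difference was -1.21 ± 0.26 (SE, n = 8 per cell type; adjusted p = 0.0026, limma), which placed Mgp at rank 5 in size among all features. WT did not hold 1 level. WT replicates 1, 2, 5 and 6 were at 1.74, 1.66, 1.21 and 1.40, and WT replicates 3, 4, 7 and 8 at 0.39, 0.42, -0.04 and 0.08. M833 was split as well, in the other order, with replicates 1, 2, 5 and 6 at -0.43, -0.43, -0.85 and -0.88 and replicates 3, 4, 7 and 8 at 0.09, 0.19, -0.29 and -0.22. Against the first set of WT arrays the log2 difference of Mgp was -1.86, and against the second it was -0.56. The sets were found in these data, so values against each of them are given for every gene as a description without a test. With M833 replicates 1, 2, 5 and 6 left out the difference was -0.92 and was not called. With M833 replicates 3, 4, 7 and 8 left out it was -1.50 and was called. No label gives the M833 sets either, so these fits too are a description without a test. The differences on Cy5 arrays alone (adjusted p = 0.0793, limma) and on Cy3 arrays alone (adjusted p = 0.0602, limma) missed the threshold. The closest levels were those of M833 and WT replicates 3, 4, 7 and 8, whose dye-balanced means of -0.06 and 0.21 differed by -0.27. The direction of the difference was thus the same for each pairing of sets, and its size ranged from -0.27 to -2.15.

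Ccdc80, a secreted protein that binds matrix and is known from mouse adipocyte differentiation, was lower in M833 on every array. The mean of its probes ran from 0.67 over a median of 0.80 to 1.04 in M833, and from 1.56 over a median of 1.83 to 2.11 in WT. No M833 array reached a WT array, whichever dye was used. The log2 difference was -0.997 ± 0.07 (SE, n = 8 per cell type; adjusted p = 1.0e-07, limma). Probes 212321 and 212524 gave -0.95 ± 0.07 and -1.04 ± 0.07, so both probes were lower in M833. Against WT replicates 1, 2, 5 and 6 the difference was -1.14, and against WT replicates 3, 4, 7 and 8 it was -0.85. Of 35 alternative settings 34 kept the call, the exception being the one with each set averaged to 1 value (adjusted p = 0.258, limma). These settings share most arrays, and some leave out a set found in these data, so their count is a description without a test.

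Fn1, encoding fibronectin, was among the transcripts above the reference in both cell types. Its log2 ratio ran from 1.43 over a median of 1.63 to 1.87 in M833, and from 1.67 over a median of 2.06 to 2.34 in WT. The Cy5 arrays of the cell types were separated by a narrow margin, with M833 at most at 1.65 and WT at least at 1.67, and the Cy3 arrays by 1.87 in M833 against 2.06 in WT. The difference was -0.38 ± 0.06 (SE, n = 8 per cell type; adjusted p = 0.00046, limma). It was -0.29 against WT replicates 1, 2, 5 and 6 and -0.47 against WT replicates 3, 4, 7 and 8. Scaling between arrays reduced it to -0.06 (adjusted p = 0.68, limma).

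Fbln2, encoding a fibulin that binds fibronectin and elastic fibre proteins, was higher on Cy3 than on Cy5 arrays in both cell types, by 0.63 on the log2 scale. On Cy5 arrays M833 was at 1.55, 1.54, 1.96 and 1.61, and WT at 2.35, 2.24, 1.98 and 1.98. On Cy3 arrays M833 was at 2.05, 2.14, 2.41 and 2.55, and WT at 2.99, 2.97, 2.51 and 2.62. The cell types overlapped in the Cy3 arrays, where M833 replicate 8 lay above WT replicate 7, and did not overlap in the Cy5 arrays, where the nearest values were 1.96 in M833 and 1.98 in WT. The difference was -0.48 ± 0.10 (SE, n = 8 per cell type; adjusted p = 0.0018, limma), with -0.66 against WT replicates 1, 2, 5 and 6 and -0.30 against WT replicates 3, 4, 7 and 8. Scaling between arrays left -0.11 (adjusted p = 0.437, limma), and the call was also lost without a dye term (adjusted p = 0.0867, limma). Without M833 replicates 1, 2, 5 and 6 Fbln2 was at -0.33 and not called. Without M833 replicates 3, 4, 7 and 8 it was at -0.64 and called, and both fits are a description without a test.

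**Figure D2:**
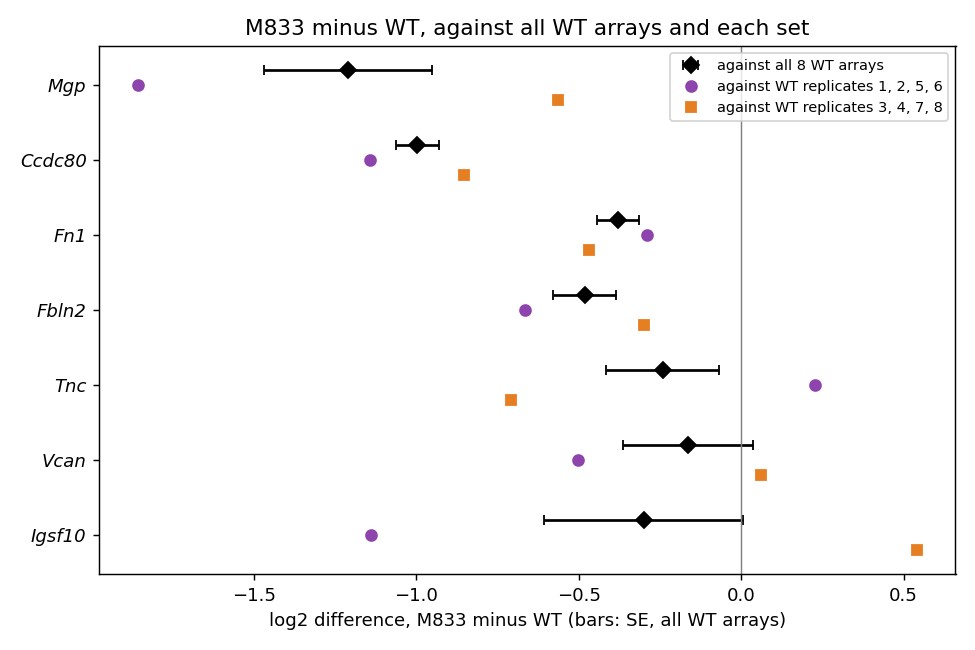
Fitted log2 difference, M833 minus WT, for each gene, against all WT arrays (diamonds, with the standard error) and against WT replicates 1, 2, 5 and 6 (circles) or 3, 4, 7 and 8 (squares) alone. Mgp, Ccdc80, Fn1 and Fbln2 stay left of 0 in each fit, while Tnc and Igsf10 cross 0, at 0.23 and -0.71 for Tnc and at -1.14 and 0.54 for Igsf10.

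For Tnc and Igsf10 the direction of the difference depended on which WT arrays were used. The promoters of these genes and of Fbln2 are given to show the sequence around an annotated start, since the WT sets of Tnc and Igsf10 differed in opposite directions and Fbln2 was called. Capitals mark matches on either strand to the AP-1 motif TGANTCA, the motif CAGACA that SMAD proteins bind, the CCAAT box, the GC box GGGCGG or the TATA box motif TATAAA. No matches overlapped in these windows of 300 bases, which run from 250 before to 50 after a RefSeq transcript start on GRCm38.p6.
Tnc (chr4:64046966-64047265, minus strand): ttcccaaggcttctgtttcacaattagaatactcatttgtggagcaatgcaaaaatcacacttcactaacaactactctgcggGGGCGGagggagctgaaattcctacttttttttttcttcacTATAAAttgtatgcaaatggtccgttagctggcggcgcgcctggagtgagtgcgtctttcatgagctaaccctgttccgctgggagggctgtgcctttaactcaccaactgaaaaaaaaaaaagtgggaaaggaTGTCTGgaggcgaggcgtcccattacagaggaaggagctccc
Igsf10 (chr3:59344207-59344506, minus strand): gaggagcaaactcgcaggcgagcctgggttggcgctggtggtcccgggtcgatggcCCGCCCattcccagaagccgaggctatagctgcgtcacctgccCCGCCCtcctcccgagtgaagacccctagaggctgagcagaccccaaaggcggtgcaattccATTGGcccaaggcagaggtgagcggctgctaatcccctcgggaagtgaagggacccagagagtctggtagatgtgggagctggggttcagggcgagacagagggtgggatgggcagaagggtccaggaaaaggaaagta
Fbln2 (chr6:91212514-91212813, plus strand): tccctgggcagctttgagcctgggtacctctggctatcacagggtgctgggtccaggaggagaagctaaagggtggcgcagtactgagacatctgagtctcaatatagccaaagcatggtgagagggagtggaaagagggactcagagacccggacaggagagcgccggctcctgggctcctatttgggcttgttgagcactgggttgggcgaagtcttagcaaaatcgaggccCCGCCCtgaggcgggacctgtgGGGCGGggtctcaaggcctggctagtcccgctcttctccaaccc
Of the Tnc windows, 2 in number and overlapping, the other (chr4:64046887-64047186) held 1 GC box, 1 match to TATAAA and 2 SMAD motifs and is not printed. The Tnc window shown held 1 GC box, 1 match to TATAAA and 1 SMAD motif. The Igsf10 window held 2 GC boxes and 1 CCAAT box, and the Fbln2 window 2 GC boxes. A GC box was held by 35.7% of the 32851 promoter windows given, a CCAAT box by 37.4%, the SMAD motif by 21.0%, the TATA box motif by 13.6% and the AP-1 motif by 7.81%. A match describes letters only, and its distance from the start was not taken into account. Windows were given for 4 of the 7 members, the fourth being Vcan.

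Tnc, encoding tenascin-C, was steady in M833 and split in WT. On Cy5 arrays M833 was at 2.38, 2.28, 2.36 and 2.31, against 2.10, 2.03, 2.97 and 3.06 in WT replicates 1 to 4. On Cy3 arrays M833 was at 2.94, 2.70, 2.71 and 2.79, against 2.64, 2.55, 3.66 and 3.38 in WT replicates 5 to 8. In each dye the M833 arrays lay above 2 WT arrays and below the other 2. After adjustment for dye the SD over arrays was 0.08 in M833 and 0.51 in WT. Over all arrays the difference was -0.24, with a 95% confidence interval of -0.61 to 0.13 (adjusted p = 0.332, limma). It was 0.23 against WT replicates 1, 2, 5 and 6 and -0.71 against WT replicates 3, 4, 7 and 8.

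Igsf10, which encodes a large secreted immunoglobulin-superfamily protein, took the widest split. M833 ran from -1.10 over a median of -0.81 to -0.66, below the reference on all 8 arrays. In WT, replicates 1, 2, 5 and 6 were at 0.17, 0.10, 0.46 and 0.47, above the reference, and replicates 3, 4, 7 and 8 at -1.44, -1.41, -1.36 and -1.31, below it. Every M833 array lay between these sets. The gap between the dye-balanced means of the WT sets was 1.68 on the log2 scale, or 3.21-fold, larger than in 99.8% of features, whose median gap was 0.125 in size. Averaged over all WT arrays the difference was -0.30, with a 95% confidence interval of -0.95 to 0.35 (adjusted p = 0.496, limma). It was -1.14 against WT replicates 1, 2, 5 and 6 and 0.54 against WT replicates 3, 4, 7 and 8. The WT mean of -0.54 therefore described neither set.

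**Figure D3:**
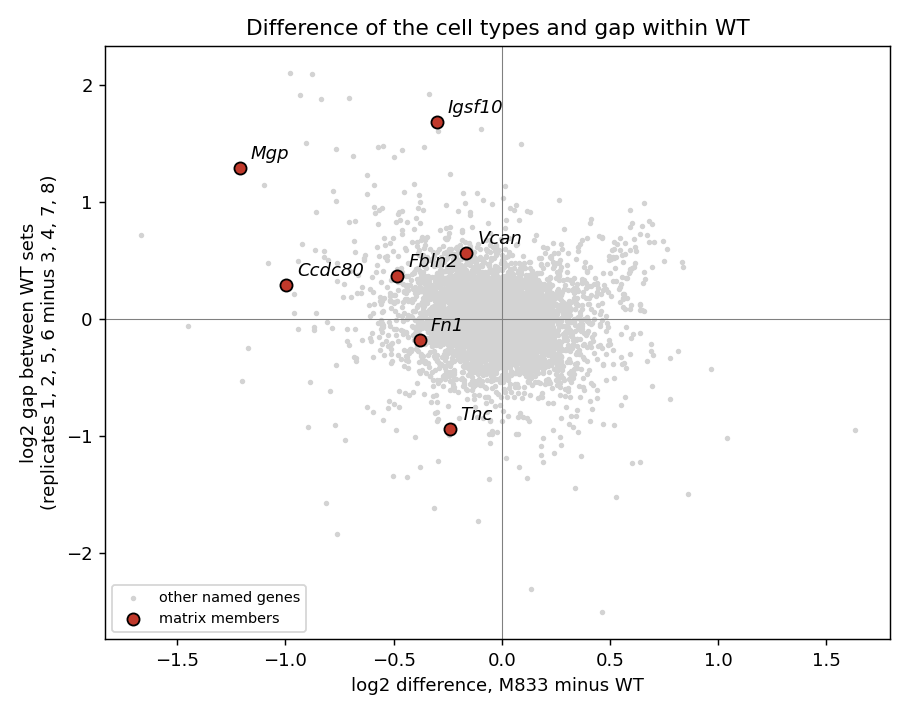
Each named gene by its log2 difference, M833 minus WT (horizontal), and by the log2 gap between WT replicates 1, 2, 5 and 6 and WT replicates 3, 4, 7 and 8 (vertical), with the 7 matrix genes in red. Igsf10 at 1.68, Mgp at 1.29 and Tnc at -0.94 lie far from 0 on the vertical axis, and Ccdc80 and Mgp far left on the horizontal one.

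The other members split less in WT. The gap between WT sets was 1.29 for Mgp, -0.94 for Tnc, 0.56 for Vcan, 0.37 for Fbln2, 0.29 for Ccdc80 and -0.18 for Fn1. Thus Mgp, Igsf10, Vcan, Fbln2 and Ccdc80 were higher in WT replicates 1, 2, 5 and 6, and Tnc and Fn1 were higher in the other set. Within M833 the gaps, taken between replicates of the same numbers, were -0.59 for Mgp, -0.34 for Vcan, -0.31 for Fbln2, -0.22 for Igsf10 and -0.12 for Ccdc80, while Tnc at 0.03 and Fn1 at -0.05 hardly differed. These gaps too are a description without a test.

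Vcan, encoding versican, was not called in either direction. M833 ran from -0.50 over a median of 0.01 to 1.10, and the 7 usable WT arrays from -0.34 over a median of 0.27 to 0.86. The cell types overlapped over most of this range, and in neither did the mean differ from the reference by the test (adjusted p = 0.724 in M833 and 0.174 in WT, limma). The difference was -0.16 ± 0.20 (SE, n = 8 M833 and 7 WT arrays), with a 95% confidence interval of -0.59 to 0.26 (adjusted p = 0.57, limma). This interval includes the difference of -0.38 measured for Fn1. With the deposited value of 12.16 on WT replicate 2 kept, the difference was -1.63 and was not called either. M833 replicate 3, at 1.10, stood apart from the other M833 arrays, of which the next highest was at 0.21.

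The place of the members against the reference was alike in both cell types for most of them. In M833, 5 of 7 members differed from the reference, with Fn1, Fbln2, Tnc and Ccdc80 above it and Igsf10 below, where 36.4% of all features were called above and 72.5% in either direction. In WT 6 of 7 differed, the same 4 and Mgp above, and Igsf10 called below by a mean that spans 4 arrays above and 4 below the reference, where 43.7% of features were called above and 79.5% in either direction. Mgp thus lay above the reference in WT at 0.86 ± 0.18 (SE, n = 8; adjusted p = 0.00044, limma), and its mean in M833 was -0.35 ± 0.18 (SE, n = 8; adjusted p = 0.094). Without WT replicate 3, 4, 7 or 8 the below-reference call of Igsf10 in WT was lost, which left 5 members called, except that 6 were called above without WT replicate 3. As the reference is 1 RNA of unknown make-up, these ratios do not give the level of a transcript.

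Dye orientation moved several members. The dye term, Cy5 minus Cy3, was -0.63 for Fbln2, -0.48 for Tnc, -0.23 for Fn1 and -0.22 for Ccdc80, and it was called for these 4 of 7 and for 41.5% of all features. The interaction of dye orientation and cell type was called in 0 of 7 members and in 0 of 12761 features (0.00%, limma), with 361 features and 0 members at an unadjusted p under 0.05, where 638.1 features were expected. For Mgp the difference was -1.20 on Cy5 arrays and -1.22 on Cy3 arrays, and for Ccdc80 it was -0.98 and -1.01.

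Genes with the profile most like that of a member, by Pearson's r of dye-adjusted values over the 16 arrays, differed from member to member. The arrays share their division into sets, so r is given as a description without a test. For Igsf10 they were Fndc3a (r = 0.991), the collagen VI gene Col6a1 (0.99) and the secreted growth factor gene Ptn (0.988), whose gaps between WT sets were 1.08, 1.92 and 1.61. For Ccdc80 they were Fam234a (0.987), Pcolce, which encodes an enhancer of procollagen processing (0.986), and Mxd4 (0.982), whose differences, M833 minus WT, were -0.48, -0.59 and -0.54. For Mgp they were Taf12 (0.989), Pon3 (0.989) and Exoc8 (0.988). For Fbln2 they were the amino acid transporter gene Slc3a2 (0.965), Pon3 (0.96) and the matrix glycoprotein gene Ecm1 (0.959). For Tnc they were Rnf149 (0.974), Myl12b (0.972) and Abhd13 (0.964), and for Fn1 Efhd2 (0.942), Pdcd6ip (0.917) and Cnot8 (0.913). Vcan, over 15 arrays, was closest to Acot7 (0.965), Aldh1a1 (0.924) and Slc22a17 (0.917).

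Other genes of the matrix were read from 7 lists, with the members left out. Of 92 genes measured 26 were called lower and 9 higher in M833, or 28.3% and 9.78%, where all features gave 15.9% and 9.96%. The split was 31 lower and 3 higher with log ratios scaled between arrays, where all features gave 2154 and 1270. It was 22 and 10 with arrays centred on their medians, where all features gave 1652 and 1565. With sets of arrays as a random block it was 18 and 2, where all features gave 899 and 554. The median difference of the 92 genes was -0.13, against -0.03 for all features. Of the 35 called, 15 kept their call and direction under each of 4 settings. These were log ratios scaled between arrays, sets of arrays as a random block, and each WT set left out. With a WT set left out the WT spread is that within 1 set, and these sets were found in these data. Such fits called 4328 and 4661 of all features, against 3301 with all arrays. Calls kept in them are a description without a test. All 15 were lower in M833 and 0 were higher. The share of all features that kept a call in the 4 settings was not counted, so the 15 cannot be set against it.

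**Figure D4:**
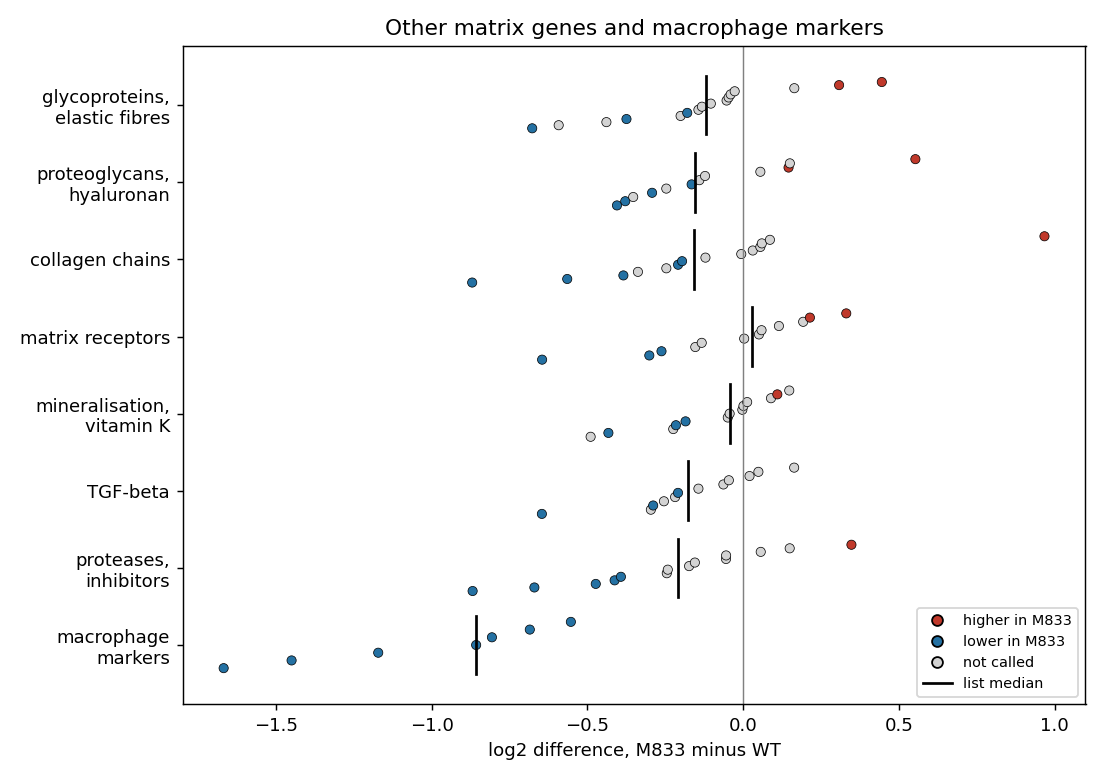
Log2 difference, M833 minus WT, of each measured gene in the matrix lists and of the macrophage markers, coloured by whether it was called higher or lower in M833 or not called, with the median of a list as a black line. All 7 macrophage markers lie left of 0, and the matrix lists spread over both sides.

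Among 16 other glycoproteins and elastic fibre genes 3 were lower and 2 higher. These were 18.8% and 12.5%, where all features gave 15.9% and 9.96%. Ecm1 (-0.68 ± 0.13) and the elastic fibre gene Emilin1 (-0.37 ± 0.07) were lower and kept their calls (SE, n = 8 per cell type). Sparc (-0.18) was lower, and Sparcl1 (0.45) and Npnt (0.31) were higher, with calls lost on scaling between arrays. Laminin and nidogen genes of basement membranes were not called, with Nid1 at -0.05, Lamc1 at -0.03 and Lamb1 at -0.13. Depending on which WT set was left out, Lamb1 was at -0.42 or 0.16 and Nid1 at -0.15 or 0.06. Lamc1 was at -0.03 in both of these fits. Among 12 genes of proteoglycans and hyaluronan 4 were lower and 2 higher, or 33.3% and 16.7%. The syndecan genes Sdc1 (-0.40 ± 0.06) and Sdc2 (-0.29 ± 0.05), which encode cell surface heparan sulfate proteoglycans, were lower and kept their calls. Bgn, encoding biglycan, was at -0.38 and its call was lost on scaling (-0.10), and Gpc3 was higher at 0.55 with its call lost in 3 of the 4 settings. Of 14 collagen chain genes 5 were lower and 1 higher, or 35.7% and 7.14%. The lower ones were led by Col1a2 (-0.87), Col5a2 (-0.56) and Col3a1 (-0.38). The cartilage collagen gene Col2a1 was higher (0.97), a call lost on scaling.

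Receptors and regulators of the matrix were read beside the shares of 15.9% lower and 9.96% higher among all features. With sets as a random block the 12761 features gave 899 lower and 554 higher. Of 12 cell surface receptors 3 were lower and 2 higher, against 2 and 0 with sets as a random block, and the list median of 0.03 was -0.11 with log ratios scaled between arrays. The integrin gene Itgb5 (-0.65 ± 0.05), whose product pairs with the alpha V chain, and the dystroglycan gene Dag1 (-0.30 ± 0.05) were lower and kept their calls (SE, n = 8 per cell type). The main fibronectin receptor genes Itga5 and Itgb1 had differences of 0.003 and -0.13 and were not called. Both values depended on the WT set used, which is given as a description without a test. Without WT replicates 1, 2, 5 and 6, Itga5 was at -0.39 and Itgb1 at -0.33. Without the other WT set, Itga5 was at 0.39 and Itgb1 at 0.06. Cd44, which encodes a hyaluronan receptor, was higher at 0.33, a call lost without WT replicates 1, 2, 5 and 6 and with sets as a random block. Of 12 genes of TGF-beta signalling and its targets 3 were lower and none higher, against 2 and 0 with sets as a random block, with the receptor gene Tgfbr2 at -0.65 ± 0.06 and kept, and Tgfb2 (-0.29) and Tgif1 (-0.21) lost on scaling. Of 14 proteases of these glycoproteins and their inhibitors 5 were lower and 1 higher. Adamts4, whose product cleaves versican and aggrecan, was lower (-0.41 ± 0.04). So were Plat (-0.39 ± 0.04), Timp2 (-0.67 ± 0.06) and Ctsb (-0.87 ± 0.04). Ctsl was lower at -0.47 with its call lost on scaling, and Timp4 was higher at 0.35, kept in 1 of the 4 settings. The versican-cleaving Adamts1 and Adamts9 were at -0.05 and 0.06 and not called. Without WT replicates 1, 2, 5 and 6, Adamts1 was at 0.28 and Adamts9 at -0.03. Without the other WT set, Adamts1 was at -0.39 and Adamts9 at 0.15.

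In the list of mineralisation and vitamin K genes, which bears on the pathway of Mgp, 3 of 13 were lower and 1 higher. These shares of 23.1% and 7.69% stood beside 15.9% and 9.96% of all features. The list median of -0.04 stood beside -0.03 for all features. Vkorc1, encoding the vitamin K epoxide reductase that recycles the cofactor for carboxylation of Mgp, was lower at -0.43 ± 0.08 (SE, n = 8 per cell type; adjusted p = 0.00078, limma) and kept its call. Its paralogue Vkorc1l1 was higher at 0.11, and Gas6, which encodes another vitamin K-dependent protein, was lower at -0.22, with calls lost with sets as a random block. The procollagen protease gene Bmp1 was lower at -0.18, also lost there. The phosphate transporter gene Slc20a1 (-0.49, adjusted p = 0.0564, limma), the pyrophosphate transporter gene Ank (-0.22), the phosphatase gene Alpl (0.09), Bmp2 (-0.003) and Bmp4 (-0.05) did not pass the test. Depending on which WT set was left out, Slc20a1 was at -0.96 or -0.02 and Ank at 0.05 or -0.50. In the same fits Alpl was at -0.02 or 0.19, Bmp2 at 0.03 or -0.03 and Bmp4 at -0.14 or 0.04.

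Among markers of other cell types, those of macrophages were lower in M833. Of all features 15.9% were called lower and 9.96% higher. Of the 12761 features, scaling between arrays gave 2154 lower and 1270 higher, and sets as a random block 899 and 554. Of 19 macrophage markers 7 were measured and all 7 were lower in M833, in each of the same 4 settings, with the lysozyme gene Lyz2 at -1.67 and the complement genes C1qb at -1.45 and C1qa at -1.17. Their mean log2 ratio, adjusted for dye, ran from -1.54 to -1.29 over M833 arrays and from -0.40 to -0.34 over WT arrays. Single markers differed between the WT sets, with gaps of 0.72 for Lyz2, -0.33 for Laptm5 and -0.25 for C1qa. In bulk RNA fewer cells of a type and less RNA per cell cannot be told apart. Of 18 cartilage markers 2 were measured, Col2a1 and Col9a3, both below the reference in both cell types. Of 14 smooth muscle and pericyte markers 4 were measured, of which Mylk was higher (0.39, kept in 1 of the 4 settings). Of 9 epithelial markers 2 were called higher, Elf3 (0.56), kept in 1 of the 4 settings, and Esrp1 (0.42), kept in 0. On scaling 0 of the 9 were higher and 2 were called lower, Cdh1 (-0.65) and Krt8 (-0.32), and the list median of 0.40 became -0.03. All 3 skeletal muscle markers measured were higher, of which 1 was called on scaling and 1 with sets as a random block. Of 4 endothelial markers 0 were called. Among fibroblast markers 6 of 9 were lower and none higher, Col1a2, Col3a1, Col1a1, P4hb, Vim and Lum. With sets as a random block 3 of 9 were called lower, and Col1a1, Vim and Lum were not. The part of these markers in the differences of Mgp, Ccdc80, Fn1 and Fbln2 was not tested.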

How the data were processed

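The authors deposited normalised log ratios, read here on the log2 scale, and limma is named per the submitters' processing notes. How background, normalisation and filtering were done is not given in the sources used here. Cy5 and Cy3 arrays were not turned here. Values above 8 on WT replicate 2 were set missing, probes of 1 symbol were averaged, and other probes were kept unnamed, giving 12761 features. A filter asking for 6 of 8 arrays per cell type removed 0. Of 15247 probes 9600 had 1 symbol, 214 several and 5433 none in the platform annotation, which is old. limma 3.58.1 in R 4.3.3 was fitted to all 16 arrays with cell type and dye, and a feature was called at an adjusted p under 0.05 (Benjamini-Hochberg over the 12761). Replicates are numbered in the order of the series. In simulated data of 12761 features it recovered 52% of changes of 0.25, 88% of 0.5, 98% of 1 and 100% of 2 on the log2 scale, with 7 false calls, with noise independent between arrays. No channel intensities were used, so dim probes could not be filtered. Members, lists and alternatives were chosen with earlier results of these data known. The genes named are the members, called genes of each list and the 3 genes with the most similar profile, and genes named that were not called were chosen after their values were seen. Promoters come from RefSeq.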

Additional observations from a re-analysis of the deposited data

Results flagged for a closer look

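Vcan in M833 had 1 array far from the other 7. M833 replicate 3 was at 1.10, and after adjustment for dye at 0.90, and its gap to the nearest array took up 0.628 of the range of the group. Among 14 groups tested, 7 genes in both cell types, no other stood out in this way, and chance alone gives about 1 in 20. Vcan in WT stood out likewise with the deposited value of 12.16 on WT replicate 2 kept, where the gap was 0.904 of the range. That value was set missing in the values reported.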

How the results depend on the processing

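Centring each array on its median, array weights, robust or no moderation, no filter on missing values, keeping the values above 8 and reading each probe by itself left the 4 called members called. Centring turned the split of called features to 1652 lower and 1565 higher, against 2030 and 1271. Leaving out each array in turn gave 4 called members throughout, 2900 to 3312 features and 30 to 37 matrix genes, with differences of -1.32 to -1.10 for Mgp, -1.02 to -0.97 for Ccdc80, -0.42 to -0.35 for Fn1 and -0.53 to -0.44 for Fbln2. The number of members that differed from the reference was 5 or 6 in WT and 5 in M833 in these fits. Scaling between arrays left 2 of 7 members and 26.8% of features called and put Fn1 at -0.062, Fbln2 at -0.11 and Tnc at 0.22. Without a dye term 1997 features and 21 matrix genes were called and Fbln2 (-0.48) was not. Cy5 arrays alone gave 844 features, 11 matrix genes and 1 member, with Mgp (-1.20, adjusted p = 0.0793), Fn1 (-0.31, adjusted p = 0.0786) and Fbln2 (-0.48, adjusted p = 0.0576) short of the threshold in limma and Vcan at 0.11. Cy3 arrays alone gave 1100 features, 15 matrix genes and 2 members, with Mgp (-1.22) and Fbln2 (-0.49) short of it. These fits hold fewer arrays. Array weights put Tnc at -0.45, called, and Igsf10 at 0.032. With sets of arrays as a random block 1453 features, 20 matrix genes and 4 members were called, with adjusted p from 3.6e-06 for Ccdc80 to 0.0196 for Fn1 (limma). That fit gave every feature the same correlation within sets, 0.325, so it could not allow for the wider gaps of a single gene such as Mgp. The SE of Mgp was 0.26 in it, as in the main fit, against 0.49 with each set averaged. When each set was averaged first, giving 2 values per cell type, limma called 0 features, 0 matrix genes and 0 members. Then 1710 features, where 638.1 were expected, and 3 of 7 members had an unadjusted p under 0.05. The differences of Mgp (-1.21), Ccdc80 (-0.997), Fn1 (-0.38) and Fbln2 (-0.48) had the same size and adjusted p from 0.258 to 0.397. Without WT replicates 1, 2, 5 and 6 Tnc was at -0.71, Igsf10 at 0.54 and Vcan at 0.062. Without WT replicates 3, 4, 7 and 8 Tnc was at 0.23 and Igsf10 at -1.14. The WT sets were found in these data, so no test is given for these values. Without M833 replicates 1, 2, 5 and 6 there were 1677 features, 15 matrix genes and 2 members, with Mgp (-0.92) and Fbln2 (-0.33) not called and Vcan at 0.0072. Without M833 replicates 3, 4, 7 and 8 there were 1870 features, 22 matrix genes and 4 members. No label gives the M833 sets, so counts with a set left out are a description without a test. Without M833 replicates 6, 7 and 8, whose slide numbers form another series, there were 23 matrix genes. The cause of these changes was not tested. No paired analysis was possible because the labels give no replicate numbers.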
